A study of Arabidopsis thaliana with 9 samples.

Results

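PUB22 (AT3G52450), PUB23 (AT2G35930), STZ (AT1G27730) and AT1G72900 are 4 immune and stress signalling genes followed here across 3 Arabidopsis thaliana genotypes. They are 4 of the 13356 genes that have an array probe set annotated to them alone, and each has 1 such probe set. They were chosen from measured values: earlier results of these same arrays had placed them high in one mutant, so their own levels are given as a description, and no p-value is given for them. Gene expression was measured with Affymetrix ATH1 arrays in the terminal 0.5 mm of primary roots, 4 days after germination, with 3 arrays per genotype and about 200 hand-dissected tips per array. Mutations cna-2, phb-13 and phv-11 made up the triple mutant. In the quadruple mutant rev-6 was added, with the PHV mutation labelled phv-11 in some places and phv-6 in others, and phb-13 shortened to phb1 in the titles. Wild type was Col er-2. The mutated loci belong to the HD-ZIP III class of transcription factor genes, which pattern organs and vascular tissue. Seedlings homozygous for all 4 mutations came from parents heterozygous for rev-6 and were recognised by radial cotyledons. No plants were treated.

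PUB22 and PUB23 are U-box E3 ubiquitin ligases, enzymes that pass ubiquitin from an E2 enzyme to a target protein. Together with their relative PUB24 they dampen the signalling that follows recognition of microbial patterns, and they also act in drought responses. STZ, also called ZAT10, is a C2H2 zinc finger repressor whose transcript responds within minutes to hours to salt, cold, wounding and reactive oxygen. AT1G72900 encodes a protein with a TIR domain, a module shared by many plant immune receptors.

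All values are log2 signals after RMA, a procedure that corrects background, brings the arrays to a common distribution and summarises the probes of a set, so a difference of 1 is a doubling relative to the other transcripts. Array medians lay between 5.92 and 5.95 in the triple mutant, between 5.91 and 5.95 in the quadruple mutant and between 5.79 and 5.89 in wild type. Replicate arrays correlated across probe sets at 0.990 to 0.997. PHV, which is mutated in both mutants, had a mean log2 signal of 4.75 ± 0.03 in the triple mutant, 5.15 ± 0.10 in the quadruple mutant and 7.23 ± 0.08 in wild type (SD, n = 3 each), so it separates the mutants from wild type but does not show which of them carries rev-6. The tissue is bulk, so fewer cells of a type and less RNA per cell cannot be told apart. Of 30 cell type markers, 5 had a probe set of their own. The root stem cell genes BBM and AGL42 had mean log2 signals of 7.90 and 5.26 in the triple mutant, 8.35 and 6.59 in the quadruple mutant and 7.75 and 5.89 in wild type. The root hair genes EXPA7 and EXPA18 stayed between 3.48 and 4.14 on all 9 arrays. The leaf gene RCA, which encodes Rubisco activase, lay between 4.26 and 4.80 on 8 arrays and at 6.51 on the wild-type array numbered 3.

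PUB22 had log2 signals of 7.27, 7.08 and 7.24 on the triple-mutant arrays numbered 1, 2 and 3, 6.66, 6.50 and 6.47 on the quadruple-mutant arrays, and 6.75, 5.99 and 5.83 on the wild-type arrays. All 3 triple-mutant arrays lay above the other 6, as they did for each of the 4 genes. Over all 22746 probe sets, 7.89% had the 3 triple-mutant arrays above the 3 wild-type arrays, and 7.61% had the 3 quadruple-mutant arrays below the 3 triple-mutant arrays. Each share is for 1 comparison alone, and the share with both orders at once was not computed. The quadruple mutant and wild type overlapped, because the wild-type array numbered 1 lay above every quadruple-mutant array. The means were 7.20 ± 0.11 in the triple mutant, 6.54 ± 0.10 in the quadruple mutant and 6.19 ± 0.49 in wild type (SD, n = 3 each). The triple-mutant mean was 2.005-fold the wild-type mean, a log2 difference of 1.00 (SE 0.20). Between same-numbered arrays this difference was 0.52, 1.08 and 1.41, so its size followed the wild-type array it was taken against.

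PUB23 had log2 signals of 8.28, 8.36 and 8.25 on the triple-mutant arrays, 7.39, 7.18 and 7.54 on the quadruple-mutant arrays, and 7.70, 7.68 and 7.16 on the wild-type arrays. The triple mutant again lay above both other genotypes without overlap, and the other two overlapped. Its triple-mutant mean of 8.30 ± 0.06 had the smallest spread of the 12 gene and genotype combinations described here. The mean was 7.37 ± 0.18 in the quadruple mutant and 7.51 ± 0.31 in wild type (SD, n = 3 each). The triple mutant stood 0.78 above wild type on the log2 scale (SE 0.15), a 1.72-fold level. The quadruple mutant stood at -0.14 against wild type (SE 0.15), and at 0.38 between the arrays numbered 3 alone, where the wild-type array was lowest. Without the 3 arrays numbered 3, a setting chosen after the data were seen, that difference was -0.40.

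**Figure D1:**
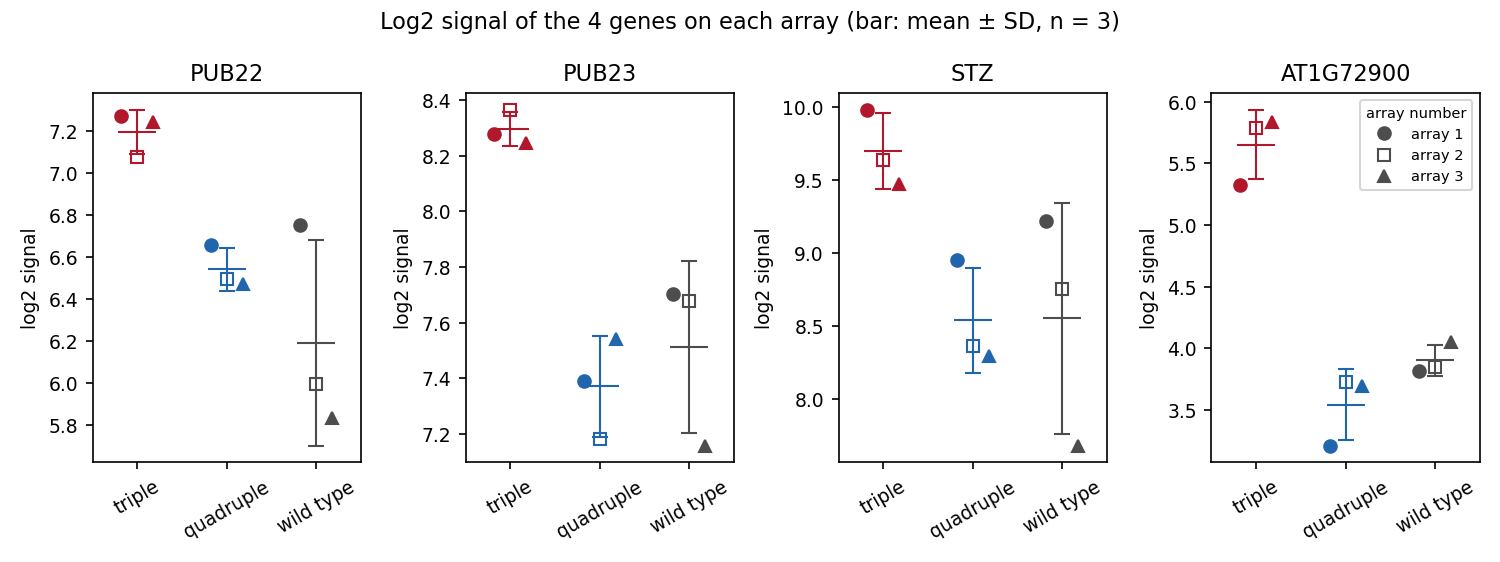
Log2 signal (vertical axis, its own range for each gene) of PUB22, PUB23, STZ and AT1G72900 on each of the 9 arrays, by genotype; circles, squares and triangles are the arrays numbered 1, 2 and 3, and bars give the mean ± SD (n = 3). The 3 triple-mutant arrays lie above the other 6 in each panel, and STZ is highest on array 1 and lowest on array 3 in every genotype.

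STZ had log2 signals of 9.98, 9.64 and 9.47 on the triple-mutant arrays, 8.95, 8.37 and 8.30 on the quadruple-mutant arrays, and 9.22, 8.75 and 7.68 on the wild-type arrays. The triple-mutant arrays lay above the other 6, by 0.25 over the highest wild-type array. Within each genotype the array numbered 1 was the highest and the array numbered 3 the lowest, an order that 207 of 22746 probe sets (0.910%) showed in all 3 genotypes and that no other of the 4 genes showed. STZ averaged 9.70 ± 0.26 in the triple mutant, 8.54 ± 0.36 in the quadruple mutant and 8.55 ± 0.79 in wild type (SD, n = 3 each). The wild-type spread made STZ more variable within genotypes than 99.2% of probe sets. The triple mutant was 1.14 above wild type (SE 0.34), and the same-numbered differences were 0.76, 0.88 and 1.79. The quadruple mutant and wild type had nearly the same mean, with a log2 difference of -0.01 (SE 0.34) and same-numbered differences of -0.27, -0.39 and 0.62. That difference changed sign in 4 of the 14 other settings tried, with values from -0.45 to 0.32. The 14 include settings that cannot change it: the replicate block and the 3 fits without a triple-mutant array.

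AT1G72900 had log2 signals of 5.33, 5.79 and 5.84 on the triple-mutant arrays, 3.21, 3.73 and 3.69 on the quadruple-mutant arrays, and 3.82, 3.85 and 4.05 on the wild-type arrays. The triple-mutant arrays stood 1.28 above the highest wild-type array, the widest such gap among the 4 genes. Here the 3 genotypes did not overlap, although only 0.09 separated the highest quadruple-mutant array from the lowest wild-type array. It was the only 1 of the 4 genes with the quadruple mutant below wild type on all arrays, an order that 5.17% of probe sets showed. The means were 5.65 ± 0.28 in the triple mutant, 3.54 ± 0.29 in the quadruple mutant and 3.90 ± 0.13 in wild type (SD, n = 3 each). The triple mutant was 3.36-fold above wild type (log2 difference 1.75, SE 0.17), and the quadruple mutant was 4.31-fold below the triple mutant (-2.11, SE 0.17). Its signals in the quadruple mutant and in wild type lay well under the array medians and no detection call was used, so these folds depend on dim signals. The quadruple mutant stood 0.36 under wild type (difference -0.36, SE 0.17), with same-numbered differences of -0.60, -0.12 and -0.35.

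The genes were therefore alike in the order of their means at the top, with the triple mutant first for each, and differed below it. For PUB22 the quadruple-mutant mean lay 0.35 above wild type (SE 0.20), although the same-numbered differences were -0.09, 0.50 and 0.64 and the arrays overlapped. For PUB23 and STZ the means of the quadruple mutant and wild type differed by less than the spread among arrays. For AT1G72900 the quadruple mutant was the lowest.

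Between the 2 mutants, differences for PUB22, STZ and AT1G72900 were tighter from array to array than in the triple mutant against wild type. For PUB23 the 2 spreads were close. What lay behind the tighter values was not tested. The quadruple mutant differed from the triple mutant by -0.61, -0.58 and -0.77 for PUB22 between arrays of the same number. The values were -0.89, -1.18 and -0.70 for PUB23. They were -1.02, -1.27 and -1.17 for STZ, and -2.12, -2.06 and -2.15 for AT1G72900. The SD of these 3 differences was 0.10 for PUB22, 0.12 for STZ and 0.04 for AT1G72900, against 0.45, 0.56 and 0.22 for the same genes between the triple mutant and wild type. For PUB23 the 2 values were 0.24 and 0.27. Both comparisons use the same triple-mutant arrays.

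**Figure D2:**
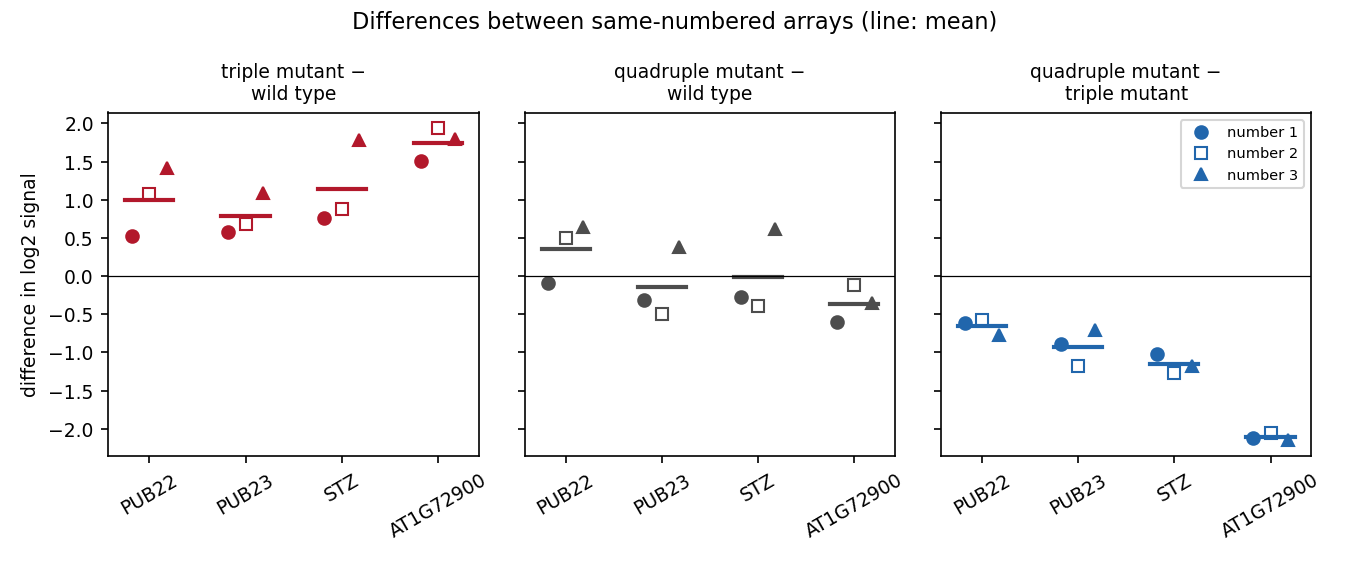
Difference in log2 signal (vertical axis) between same-numbered arrays for the 4 genes, in the triple mutant against wild type, the quadruple mutant against wild type and the quadruple against the triple mutant; horizontal lines are the differences between genotype means. All 12 points are above 0 in the left panel and all 12 are below 0 in the right panel. These signs follow from the triple-mutant arrays lying above all the others for each gene. In the right panel the points of AT1G72900 run from -2.15 to -2.06.

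Over all 22746 probe sets, 1.73% were called between the triple mutant and wild type in a limma fit of the 9 arrays (adjusted p under 0.05), and 3 of the 4 genes were, all but STZ. Between the quadruple and the triple mutant 2.22% were called, and 2 of the 4 were, PUB23 and AT1G72900. Between the quadruple mutant and wild type 0.044% were called, and 0 of the 4 were. With the replicate number as a block, all 4 were called in each of the first 2 comparisons, against 5.06% and 4.9% of all probe sets. These counts are printed only beside the shares over all probe sets, and nothing is read from them, since the genes were chosen with those calls in view.

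Hybridization spike-in controls, which are added to every sample before it goes on the array, were higher on the triple-mutant arrays too. Their mean log2 signal was 10.33 to 10.56 in the triple mutant, 10.19 to 10.23 in the quadruple mutant and 10.05 to 10.31 in wild type. The triple-mutant range thus lay just above the other two, and its part in the differences was not tested. The signal of the actin transcript at its 3′ end stood over that at its 5′ end by 2.65 to 3.22 on the arrays numbered 1, by 3.05 to 3.92 on those numbered 2 and by 2.03 to 2.18 on those numbered 3, so the arrays on which STZ was lowest were also those with the smallest 3′ to 5′ contrast. Poly-A spike-in controls averaged 5.28 to 7.25 on those arrays, 4.82 to 5.06 on the arrays numbered 2 and 4.84 to 5.24 on those numbered 1. The part of either in the levels of STZ was not tested.

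Pooled over the 9 arrays, deviations from the genotype means went together for PUB22, PUB23 and STZ, whereas those of AT1G72900 did not. The wild-type arrays, with the largest SD for PUB22 (0.49), PUB23 (0.31) and STZ (0.79), weigh most in these values. The pattern did not hold within each genotype. In the triple mutant, PUB22 was lowest (7.08) and PUB23 highest (8.36) on the array numbered 2. After each genotype's mean was taken off, the deviations of STZ over the 9 arrays correlated at 0.80 with those of PUB22 and at 0.72 with those of PUB23, and PUB22 and PUB23 correlated at 0.51. The deviations of AT1G72900 correlated at -0.42 with PUB22, -0.28 with PUB23 and -0.71 with STZ. These are descriptions over 9 arrays that share their normalization and whose same-numbered members deviate together across the genome.

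The genes whose 9-array profile lay nearest to each of the 4 were found among 877 genes with a range of at least 1 on the log2 scale. Nearest to STZ were AT4G29780 (r = 0.991), AT3G02840 (0.989), AT1G76640 (0.988), AR781 (0.987) and AT3G10930 (0.979). AT4G29780 ranked the 9 arrays exactly as STZ did, with a Spearman rho of 1, and had 9.22, 8.91 and 8.87 in the triple mutant, 8.32, 7.85 and 7.78 in the quadruple mutant and 8.35, 8.19 and 7.31 in wild type. It therefore shared both the high triple mutant and the order of array numbers. Likeness by deviations from the genotype means alone was searched among the 276 genes whose deviations had a range of at least 1. Nearest to STZ on that measure were AT1G19210 (r = 0.991), AT3G02840 (0.991) and AT4G29780 (0.988), so AT3G02840 and AT4G29780 were near on both measures.

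PUB22 was nearest to AT2G41640 (r = 0.981), AT1G63720 (0.951), AT1G33970 (0.950), AT1G56300 (0.941) and the cytochrome P450 gene CYP71B26 (0.934). AT2G41640 had 7.63, 7.56 and 7.48 in the triple mutant, 6.89, 6.96 and 6.79 in the quadruple mutant and 6.96, 6.33 and 6.02 in wild type, the same intermediate quadruple mutant and high first wild-type array as PUB22. By deviations alone PUB22 was nearest to QQS (r = 0.976), which affects leaf starch, then to AT5G28430 (0.942) and the plastid gene ndhE (0.940). PUB23 was nearest to AT3G52800 (r = 0.963), AT2G27080 (0.951), AT3G24450 (0.950), AT4G09760 (0.947) and AT1G79420 (0.947). By deviations alone it was nearest to AT3G04020 (0.901) and the plastid genes rpoC1 (0.874) and rpl16 (0.863).

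AT1G72900 was nearest to AT3G47480 (r = 0.974), AT4G15390 (0.969), AT4G08850 (0.969), AT1G33790 (0.968) and AT2G47890 (0.964). AT3G47480 had 4.55, 4.66 and 4.73 in the triple mutant, 3.56, 3.80 and 3.54 in the quadruple mutant and 3.64, 3.91 and 3.74 in wild type. By deviations alone, among the 276 genes searched, AT1G05340 came nearest to AT1G72900 (r = 0.690), then AT4G25170 (0.635) and the immune co-chaperone gene SGT1A (0.601), weak likenesses over 9 arrays. The 4 lists of 5 nearest genes by level had no gene in common.

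Genes of related pathways and families, and loci next to AT1G72900, were measured thinly. Of these genes 81, with PUB22, PUB23, STZ and AT1G72900 left aside, could be set beside the 4. Between the triple mutant and wild type 3 of the 81 rose and 0 fell (limma adjusted p under 0.05), which is 3.70%, against 1.73% of all probe sets. Their median log2 difference was 0.08, against -0.02 over all probe sets. The 3 were the dehydrin gene LTI30, the transcription factor gene WRKY6 and AT1G72940. With the replicate block 11 rose and 1 fell, 14.8% of the 81, against 5.06% of all probe sets. The lists were chosen with earlier results of these data known, and some were added later. They also hold AT1G76640, found above among the genes nearest to STZ. Nothing is therefore read from the shares of the 81 in any comparison. Between the quadruple mutant and wild type 0 of the 81 were called by limma, against 0.044% of all probe sets, and 12 had an unadjusted p under 0.05. With the replicate block 0 of the 81 passed there, against 0.295% of all probe sets. At such shares a count of 0 does not stand apart. Between the quadruple and the triple mutant 0 rose and 3 fell, LTI30, AT1G72940 and the calmodulin-like gene CML43. That is 3.70% of the 81, against 2.22% of all probe sets. With the block 9 fell and 0 rose, 11.1% of the 81 against 4.9% of all probe sets.

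Among U-box ligases, 7 other members had a probe set, and 0 of them were called by limma in any of the 3 comparisons. Over all probe sets 1.73% were called in the triple mutant against wild type and 0.044% in the quadruple mutant against wild type. In the quadruple against the triple mutant 2.22% were called, so 7 genes are too few for a count of 0 to stand apart. In the same order of comparisons, 3, 1 and 2 of the 7 genes had an unadjusted p under 0.05. Their median log2 difference between the triple mutant and wild type was 0.32, with a range of -0.07 to 0.43. PUB24, the closest functional partner of PUB22 and PUB23, had 4.19, 4.52 and 3.86 in the triple mutant, 3.69, 3.89 and 3.71 in the quadruple mutant and 3.76, 3.77 and 3.76 in wild type. These signals lay under the array medians, and the triple mutant stood 0.43 above wild type without passing (SE 0.15, limma adjusted p = 0.221). PUB19, a U-box gene of drought responses, stood at -0.51 in the quadruple against the triple mutant (limma adjusted p = 0.179) and passed with the replicate block (adjusted p = 0.0350). PUB43 stood at 0.32 in both mutants against wild type, with limma adjusted p = 0.246 and 0.473.

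The machinery around the ligases was measured through 13 E2 ubiquitin-conjugating enzyme genes and 7 exocyst genes, too few for a count of 0 to stand apart from the 1.73% called over all probe sets. Of the 13 E2 genes, 0 were called by limma in the triple mutant against wild type, 4 had an unadjusted p under 0.05, and their median difference was -0.05. With the replicate block 2 of the 13 passed, against 5.06% of all probe sets. UBC16 stood at 0.88 (limma adjusted p = 0.0940) and UBC20 at -0.38 (limma adjusted p = 0.125), and these were the 2 that passed with the block, at adjusted p = 0.0102 and 0.0458. Of 7 genes for subunits of the exocyst, the vesicle tethering complex that PUB22 is known to act on, 0 were called by limma in the triple mutant against wild type and 0 had an unadjusted p under 0.05, with differences from -0.44 to 0.20. RPN12a, a proteasome lid subunit reported as a PUB22 and PUB23 target in drought responses, stood at -0.24 (limma adjusted p = 0.368).

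**Figure D3:**
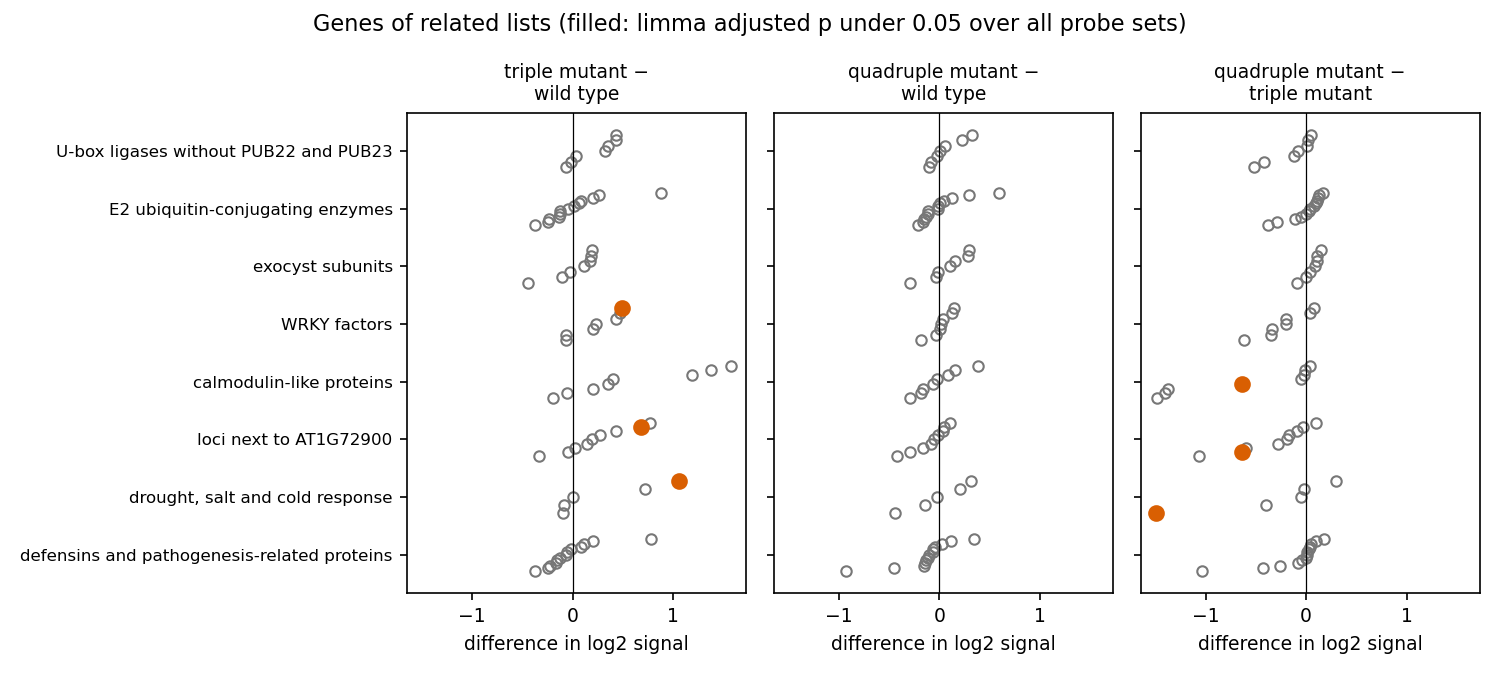
Difference in log2 signal (horizontal axis) for the measured genes of 8 related lists, 1 point per gene, in the 3 comparisons; filled points passed limma adjusted p under 0.05 over all probe sets. LTI30, WRKY6 and AT1G72940 are the filled points of the left panel, and LTI30, AT1G72940 and CML43 those of the right panel; the middle panel has 0.

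Upstream and downstream of pattern recognition, 3 receptor or kinase genes and 7 WRKY genes were measured. FER, a receptor kinase, stood at 0.39 in the triple mutant against wild type (SE 0.11, limma adjusted p = 0.144), and passed with the block (adjusted p = 0.0431). BIK1, a cytoplasmic kinase of pattern signalling, stood at 0.39 (SE 0.17, limma adjusted p = 0.337), and the receptor gene EFR at 0.02 (limma adjusted p = 0.955). WRKY6 had 8.42, 8.33 and 8.47 in the triple mutant, 8.01, 8.15 and 8.04 in the quadruple mutant and 7.76, 7.93 and 8.07 in wild type. It rose 1.40-fold in the triple mutant (log2 difference 0.49, SE 0.10, limma adjusted p = 0.0365), but did not pass after quantile normalization (adjusted p = 0.0701) or median centring (0.129), and passed in 1 of 9 fits that left out an array. The pattern-induced genes WRKY22 and WRKY53 stood at 0.47 and 0.43, with limma adjusted p = 0.313 and 0.510. AT1G51890, the only other measured gene of the pattern-triggered list, went the other way, at -0.14, and was not called. Its means were 3.29 in the triple mutant and 3.43 in wild type, under the array medians. Of 13 defensin and related genes, 0 were called by limma in the triple mutant against wild type, against 1.73% of all probe sets. Of the 13, 2 had an unadjusted p under 0.05. With the replicate block 1 of the 13 passed, against 5.06% of all probe sets. It was LCR68, annotated as a low-molecular-weight cysteine-rich protein gene, at 0.77 (limma adjusted p = 0.183 without the block and 0.0241 with it). The jasmonate list had 4 measured genes, 0 of them called by limma and 0 at an unadjusted p under 0.05 in that comparison. Both lists are too short for a count of 0 to stand apart from 1.73%.

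Calmodulin-like genes, which encode small calcium sensors, included 3 that shared the order of array numbers seen for STZ within each genotype. CML38 had 10.20, 9.60 and 8.999 in the triple mutant, 8.63, 8.31 and 7.65 in the quadruple mutant and 9.20, 8.30 and 7.17 in wild type. CML37 had 7.09, 6.43 and 5.84 in the triple mutant, 5.76, 5.31 and 4.18 in the quadruple mutant and 6.54, 5.42 and 3.84 in wild type. Both repeated the order of STZ, with the array numbered 1 highest and that numbered 3 lowest in each genotype, and on each number the triple mutant lay above the other two. AT1G76640, which RefSeq lists under the name CML39 as it also does CML37, had 9.53, 8.67 and 8.42 in the triple mutant, 8.01, 7.14 and 7.003 in the quadruple mutant and 8.39, 7.36 and 6.15 in wild type.

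Without the block none of these 3 genes passed in the triple mutant against wild type, where CML38 stood at 1.38, CML37 at 1.19 and AT1G76640 at 1.57 (limma adjusted p = 0.224, 0.443 and 0.189). With the replicate number as a block all 3 passed, at adjusted p = 0.00191, 0.0145 and 0.00292. In the quadruple against the triple mutant they stood at -1.40, -1.37 and -1.49, again passing only with the block (adjusted p = 0.00125, 0.00661 and 0.00330). CML43 fell 1.56-fold in the quadruple against the triple mutant (log2 difference -0.64, SE 0.11, limma adjusted p = 0.0181) and passed in 4 of 9 fits without an array. CML43 stood at 0.35 in the triple mutant against wild type (limma adjusted p = 0.195). The other 4 of the 8 measured members, CML23, CML30, CML41 and CML42, had differences from -0.20 to 0.41 in the triple mutant against wild type and were not called. The deviations of CML37, CML38 and AT1G76640 from their genotype means correlated with those of STZ at 0.94, 0.94 and 0.98 over the 9 arrays. AT1G76640 had already been picked for its likeness to STZ over the same arrays. The other measured members had 0.88 (CML43), 0.75 (CML23), 0.52 (CML42), 0.42 (CML30) and -0.29 (CML41), so the family did not follow STZ as a whole.

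**Figure D4:**
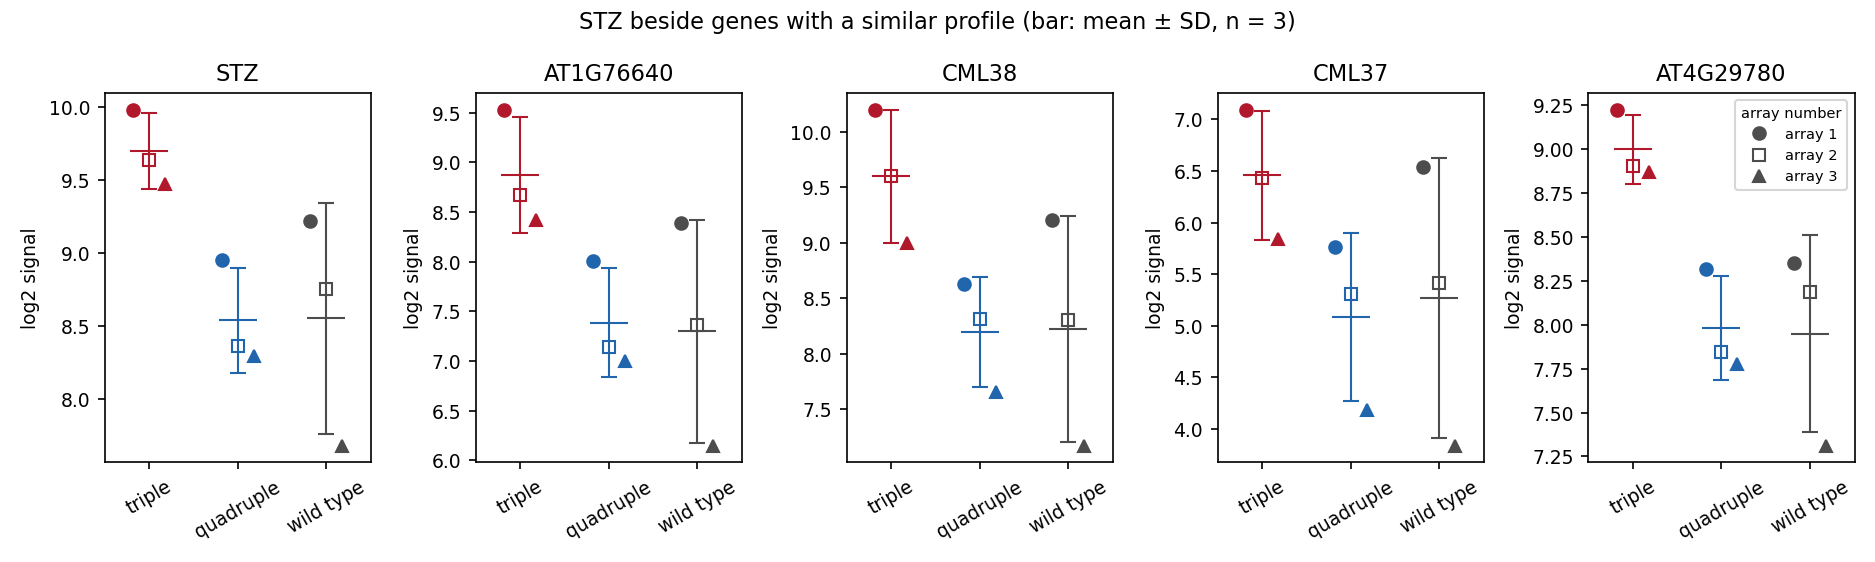
Log2 signal (vertical axis, its own range for each gene) of STZ, the calmodulin-like genes AT1G76640, CML38 and CML37, and AT4G29780 on each array, by genotype; circles, squares and triangles are the arrays numbered 1, 2 and 3, and bars give the mean ± SD (n = 3). In every panel and genotype array 1 is highest and array 3 lowest, and the wild-type bars are the longest.

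For drought and cold, 5 genes of a list of 44 were measured. LTI30 had 9.97, 10.42 and 9.46 in the triple mutant, 8.56, 8.56 and 8.26 in the quadruple mutant and 8.87, 9.09 and 8.72 in wild type. It rose 2.08-fold in the triple mutant against wild type (log2 difference 1.06, SE 0.21, limma adjusted p = 0.0362). It passed in 1 of 9 fits without an array and missed the threshold under median centring (adjusted p = 0.0596). In the quadruple against the triple mutant it fell 2.81-fold (-1.49, SE 0.21, limma adjusted p = 0.00514), which held in 9 of 9 such fits. COR27, a cold-regulated gene, had 6.76, 6.66 and 5.85 in the triple mutant, 6.22, 5.89 and 5.95 in the quadruple mutant and 5.96, 5.50 and 5.64 in wild type. It stood at 0.72 in the triple mutant against wild type (limma adjusted p = 0.169) and passed with the replicate block (adjusted p = 0.0341). COR15A and COR15B, classic cold-response genes, stood at -0.09 and -0.00 in the triple mutant against wild type, with limma adjusted p = 0.828 and 0.995. The fifth measured gene, COR47, stood at -0.09 (limma adjusted p = 0.802). The heat shock gene Hsp70-2 stood at 0.33 (limma adjusted p = 0.525).

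AT1G72900 lies in a row of loci on the TAIR10.1 gene list that includes AT1G72930, named TIR there for its toll/interleukin-1 receptor-like product, and 9 loci of 12 around it had their own probe set. AT1G72940 had 4.56, 4.63 and 4.43 in the triple mutant, 3.89, 3.97 and 3.82 in the quadruple mutant and 3.84, 3.77 and 3.97 in wild type. The triple mutant lay above the other 6 arrays without overlap. AT1G72940 rose 1.60-fold in the triple mutant against wild type (log2 difference 0.68, SE 0.09, limma adjusted p = 0.00552) and fell 1.56-fold in the quadruple against the triple mutant (-0.64, SE 0.09, limma adjusted p = 0.00573). Both calls held in 9 of 9 fits without an array and after both other scalings. Its means of 4.54 in the triple mutant, 3.90 in the quadruple mutant and 3.86 in wild type lay under the array medians, so these folds depend on dim signals. Under the minimum mean of 5 AT1G72940 drops out.

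AT1G72920, between them in tag order, had 5.50, 4.61 and 4.62 in the triple mutant, 3.62, 4.20 and 3.72 in the quadruple mutant and 4.60, 4.11 and 3.70 in wild type. Its triple mutant stood at 0.77 against wild type (limma adjusted p = 0.258), and the quadruple mutant at -1.06 against the triple mutant (limma adjusted p = 0.104, or 0.0272 with the replicate block). AT1G72850 stood at 0.43 in the triple mutant against wild type and at -0.60 in the quadruple against the triple mutant, with limma adjusted p = 0.394 and 0.238, and with 0.0349 and 0.00688 under the block. The other 6 loci, AT1G72840, AT1G72860, AT1G72870, AT1G72890, AT1G72950 and AT1G72960, had differences from -0.33 to 0.27 in the triple mutant against wild type and were not called with or without the block. Whether probes of one of these loci, or of PUB22 and PUB23, also detect a related transcript was not tested.

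**Figure D5:**
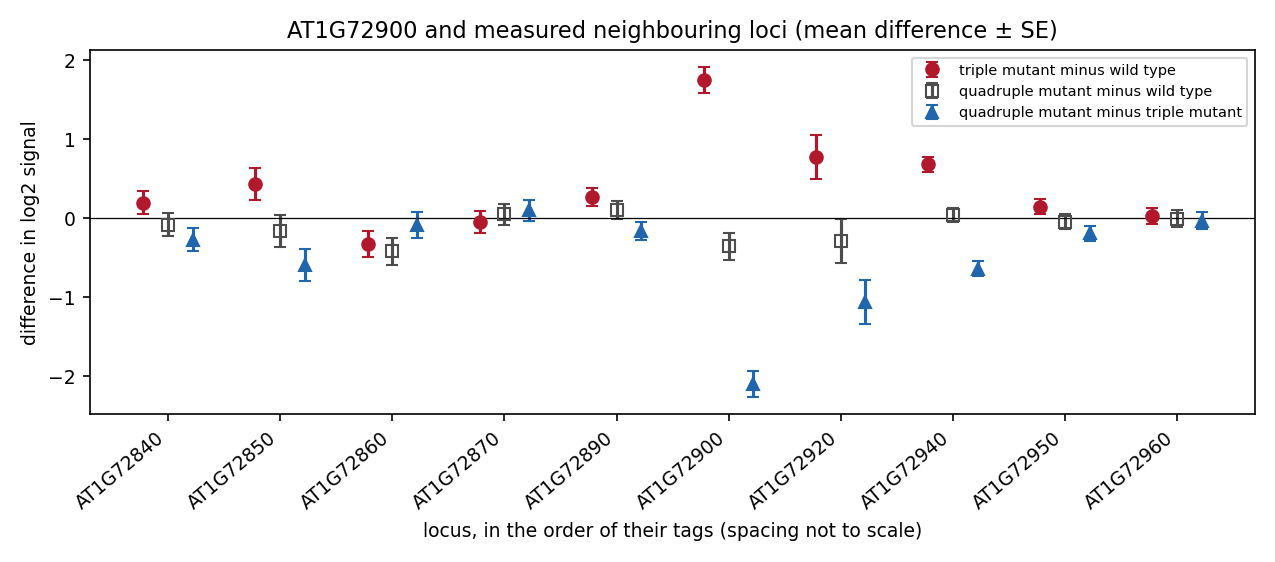
Difference in log2 signal (vertical axis, mean ± SE of the limma fit of 9 arrays) for AT1G72900 and 9 neighbouring loci in the order of their tags (horizontal axis, not to scale), in the 3 comparisons. AT1G72900 has the largest differences, 1.75 in the triple mutant against wild type and -2.11 in the quadruple against the triple mutant. The 9 neighbours run from -0.33 to 0.77 in the first of these comparisons and from -1.06 to 0.10 in the second. Of them 1, AT1G72940, was called by limma in each, against 1.73% and 2.22% of all probe sets. Both comparisons use the same triple-mutant arrays.

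Of 7 root meristem markers 2 were measured, and beside these changes both moved the other way between the mutants. AGL42 rose 1.33 (limma adjusted p = 0.00149) and BBM 0.45 (limma adjusted p = 0.0353) on the log2 scale in the quadruple against the triple mutant, while each of PUB22, PUB23, STZ and AT1G72900 was lower there. In the triple mutant against wild type the 2 markers differed in direction, with BBM at 0.15 and AGL42 at -0.63. The part of the cell make-up of the tips in the levels of the 4 genes was not tested.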

How the data were processed

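The authors deposited log2 signals made with RMA in Affymetrix Expression Console and also used limma, per the submitters' processing notes, with versions not given in the sources used here. Per the labels' protocols, 250 ng of total RNA was labelled per array. Arrays were grouped and numbered 1 to 3 by their titles. Of 22810 probe sets, 64 controls were left out. Of the other 22746, 13513 have 1 gene in the platform annotation, 503 several and 8730 are unlisted. Symbols came from RefSeq TAIR10.1 through the Entrez identifier, with 77 unmatched. Coordinates and sequences of these genes were not used here.

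Limma 3.58.1 in R 4.3.3 fitted a mean per genotype over all 9 arrays, with empirical Bayes moderation. Benjamini-Hochberg adjustment ran over 22746 probe sets within each comparison. The fit without the replicate block was tested on simulated data for the triple mutant against wild type. Simulated arrays varied independently, unlike the same-numbered arrays here. P-values measure the spread between arrays that the series design calls biological replicates. The number of arrays limits the precision. The genes, lists and tests were chosen with earlier results of these data known; the calmodulin-like, exocyst, E2, defensin and neighbouring-locus lists and some smaller families were added after the annotation was read. A list for TIR-domain proteins by product name was dropped, because the tables hold no product names, and the zinc finger list had no measured member but STZ. Genes were named by a fixed rule: the 4 genes, PHV, PUB24, up to 4 called genes per list and comparison, and for each of the 4 the 5 nearest by Pearson r over arrays and the 3 nearest by deviations from genotype means; other list members were named after their values were seen. Where a gene had several probe sets, the one with the highest mean stood for it.

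Deviations of same-numbered arrays from their genotype means correlated across probe sets at 0.273, 0.330 and 0.408 between the triple mutant and wild type. Between the mutants they correlated at 0.217, 0.340 and 0.515. Between the quadruple mutant and wild type number 1 gave 0.0427, against 0.342 and 0.360 for numbers 2 and 3, so pairing has the least ground there. The main limma fit treats arrays as unpaired in every comparison. The fit with the replicate block pairs same-numbered arrays in every comparison. No protocol states what a shared number means.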

Additional observations from a re-analysis of the deposited data

How the results depend on the processing

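Log2 differences of PUB22, PUB23, STZ and AT1G72900 were recomputed under 14 settings: the replicate block, quantile normalization, median centring, array weights, leaving out each of the 9 arrays, and leaving out the 3 arrays numbered 3, which was picked once the values had been seen. Of these values 167 moved by less than 1 SD between replicates, and the exception was PUB23 in the quadruple mutant against wild type, at -0.40 without the arrays numbered 3 against -0.14 with them. That count says little about stability, because much of it was fixed in advance. The replicate block cannot change a difference, nor can leaving out an array outside the comparison. Leaving out 1 of the 3 arrays of a compared genotype cannot move it by 1 such SD. The replicate block left every difference as it was, for example 1.14 for STZ in the triple mutant against wild type, where its SE went to 0.19 with the block against 0.34 without it. Without 1 array the difference between the triple mutant and wild type ranged from 0.82 to 1.28 for PUB22, 0.61 to 0.88 for PUB23, 0.71 to 1.48 for STZ and 1.65 to 1.91 for AT1G72900. Median centring moved the median of all probe sets in this comparison to -0.12, against -0.02, and gave 0.90 for PUB22, 0.68 for PUB23, 1.04 for STZ and 1.65 for AT1G72900.

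Counts of calls, also made with a variance trend, a minimum mean of 5 and a fit of the 6 arrays compared, moved more. Of the 81 list genes, the 3 called in the triple mutant against wild type became 12 with the replicate block, 1 after median centring, 1 in a fit of the 6 arrays compared, and 1 to 3 without 1 array. It was 1 without any of the quadruple-mutant arrays, without triple-mutant array 1 or 2, and without wild-type array 2. The 3 called in the quadruple against the triple mutant became 9 with the block, 13 with array weights and 2 to 4 without 1 array. Over all probe sets, 393 calls in the triple mutant against wild type became 1152 with the block, 167 in the 6-array fit, 166 without the arrays numbered 3 and 182 to 647 without 1 array; median centring gave 214 higher and 102 lower, against 337 and 56. The 504 in the quadruple against the triple mutant became 1114 with the block, 1663 with array weights and 220 to 610 without 1 array. The 10 in the quadruple mutant against wild type became 67 with the block, 5 in the 6-array fit, 2 without the arrays numbered 3 and 4 to 59 without 1 array. Fits with fewer arrays have fewer degrees of freedom; the cause of the other moves was not tested. AT1G72900 has a mean log2 signal of 4.37 and drops out under the minimum mean of 5.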
